A study of Saccharomyces cerevisiae with 6 samples.

Results

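COPII is the protein coat that buds vesicles from the endoplasmic reticulum (ER) and carries newly made proteins towards the Golgi. Its 10 genes described here are SAR1, SEC12, SED4, SEC23, SEC24, SFB2, SFB3, SEC13, SEC31 and SEC16, which cover the coat, its exchange factor and the organiser of the exit sites. They were found by gene symbol in the platform annotation among 5656 genes with a symbol, and have 18 of the 9335 probe sets on the array. The 9 genes other than SEC16 have 1 probe set each, and SEC16 has 9. The genes were chosen with their K91A and WT signals known, above all those of SEC16, whose probe sets disagree. Their differences are therefore given as a description, with no test of their own.

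The 6 arrays hold total RNA of budding yeast (Saccharomyces cerevisiae) grown to mid-log phase in YPD, a rich glucose medium. K91A 1, K91A 2 and K91A 3 are samples with a histone H4 in which the lysine that the allele's name gives is changed to alanine, and WT 1, WT 2 and WT 3 are samples with wild-type histone H4. K91A 3 is grouped by its title, although its description calls it WT. The strain background and the way the allele is carried are not given in the labels. Nothing there says that replicates were separate cultures, and each p-value then measures the spread between these 6 samples, which may be technical. Transcripts of a pair of genes often used as markers in strain construction also differed: ADE2 was lower by a log2 fold change of -5.73 and TRP1 higher by 5.28 in K91A than in WT (limma adjusted p = 0.000186 and 0.0012, n = 3 each).

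COPII assembly begins when Sec12, an ER membrane protein, loads the small GTPase Sar1 with GTP, and Sar1 then inserts into the membrane. Sar1 recruits the inner coat of Sec23 and Sec24, in which Sec23 stimulates GTP hydrolysis by Sar1 and Sec24 binds cargo. Sec13 and Sec31 join as the outer cage that bends the membrane. Sec16 is a large peripheral membrane protein that binds coat subunits and marks ER exit sites. Sfb2 and Sfb3 are relatives of Sec24 that take its place in part of the coats, and Sed4 is a membrane protein related to Sec12.

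Intensities were put on the scale log2(intensity + 16) and quantile normalized, and all levels below are on this scale unless called deposited intensities. The median deposited intensity was 745 to 2564 over the K91A arrays, lowest on K91A 3, and 1828 to 3116.5 over the WT arrays. Probe sets in the dimmest 25% by mean were left out of the fit, which left 6931 and 13 of the 18 COPII probe sets. The 5 left out all belong to SEC16. limma called 30.2% of all probe sets tested at an adjusted p under 0.05, with 15.4% higher and 14.8% lower in K91A. These were 1068 and 1023 probe sets. With no scaling of the arrays, on the values as deposited, 32 were higher and 671 lower. The median log2 fold change over the whole array was then -0.82, against -0.07 after scaling, so each direction is given relative to the array as a whole. The 5' over 3' signal ratio of the ACT1 (actin) control was 0.865, 0.843 and 0.877 on K91A 1, 2 and 3, against 0.110, 0.114 and 0.365 on WT 1, 2 and 3 (exact permutation test, two-sided p = 0.1, which is the lowest value possible with 3 arrays a group). The ratio of the SRB4 control was 0.319 ± 0.147 in K91A and 0.126 ± 0.044 in WT (SD, n = 3 each, exact permutation p = 0.1). That of SPT15 overlapped between the groups, at 0.302 to 0.675 in K91A and 0.0837 to 0.445 in WT (exact permutation p = 0.2). The part of these ratios in the differences below was not tested.

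Among the 13 COPII probe sets tested, 2 were higher in K91A, both of SEC16, and 2 were lower, those of SAR1 and SEC12. Of all probe sets 15.4% were higher and 14.8% lower, and nothing is read from the comparison, since the same contrast led to the choice of the genes. With K91A 3, the array whose labels conflict, left out, these 4 probe sets were the ones called. They were at 2.73 and 1.65 for SEC16, -0.74 for SAR1 and -1.30 for SEC12. Of all probe sets 12.5% were higher and 14.5% lower in that fit. With K91A 3 counted as WT, limma called 0 of all probe sets tested (1056 at an unadjusted p under 0.05). The 9 genes with 1 probe set all had negative log2 fold changes, from -1.20 to -0.06, with a median of -0.38 against -0.07 over all probe sets tested. Of those 6931 probe sets 3702 had negative values. Values of the K91A and WT arrays did not overlap for 6 of the 13, 3 in each direction, where 51.1% of all probe sets had no overlap (23.7% higher and 27.5% lower). The arrays measured RNA pooled over a culture, so fewer cells with a transcript and less transcript per cell cannot be told apart.

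The GTPase that starts assembly gave the tightest values. SAR1 had levels of 13.30, 13.26 and 13.20 on K91A 1, 2 and 3, against 14.06, 14.07 and 14.00 on WT 1, 2 and 3. The groups stood apart, and the spread within each was the smallest of all 18 COPII probe sets (SD 0.05 in K91A and 0.04 in WT, n = 3 each). SAR1 was thus 1.72-fold lower in K91A (log2 fold change -0.79, SE 0.14). Its deposited intensities were 10114.3, 8904.0 and 4136.9 in K91A and 23354.0, 30085.6 and 17489.0 in WT, and none of the K91A arrays reached the lowest WT value. The fit without WT 2 no longer called it (-0.77), while the fits without each of the other 5 arrays did.

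SEC12, the exchange factor of Sar1, had the lowest log2 fold change of the 18 probe sets. Its levels were 9.72, 9.13 and 9.76 on K91A 1, 2 and 3, against 10.46, 10.80 and 10.95 on WT 1, 2 and 3. All K91A values lay below all WT values, and SEC12 was 2.30-fold lower in K91A (log2 fold change -1.20, SE 0.26). On the K91A arrays its signal ranked at percentiles of 19.1 to 28.1, against 40.3 to 49.9 on the WT arrays. The values have no detection call beside them, and whether the K91A signal was above background is unknown. SEC12 passed the filter on dim signal through the WT arrays, and a probe set that passes in this way has to be lower in K91A. Without WT 2 (-1.13) or WT 3 (-1.11) SEC12 was not called, and neither was it with WT 1 and WT 2 averaged (-1.23) or on the values as deposited (-1.72).

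SED4, whose protein is related to Sec12, had a smaller log2 fold change. Its levels were 12.25, 11.40 and 12.18 on K91A 1, 2 and 3, against 12.38, 12.37 and 12.26 on WT 1, 2 and 3. The K91A values lay below the WT values, with K91A 1 and WT 3 almost level and K91A 2 well below the other K91A arrays. The log2 fold change of -0.39 (SE 0.26) did not pass the threshold.

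**Figure D1:**
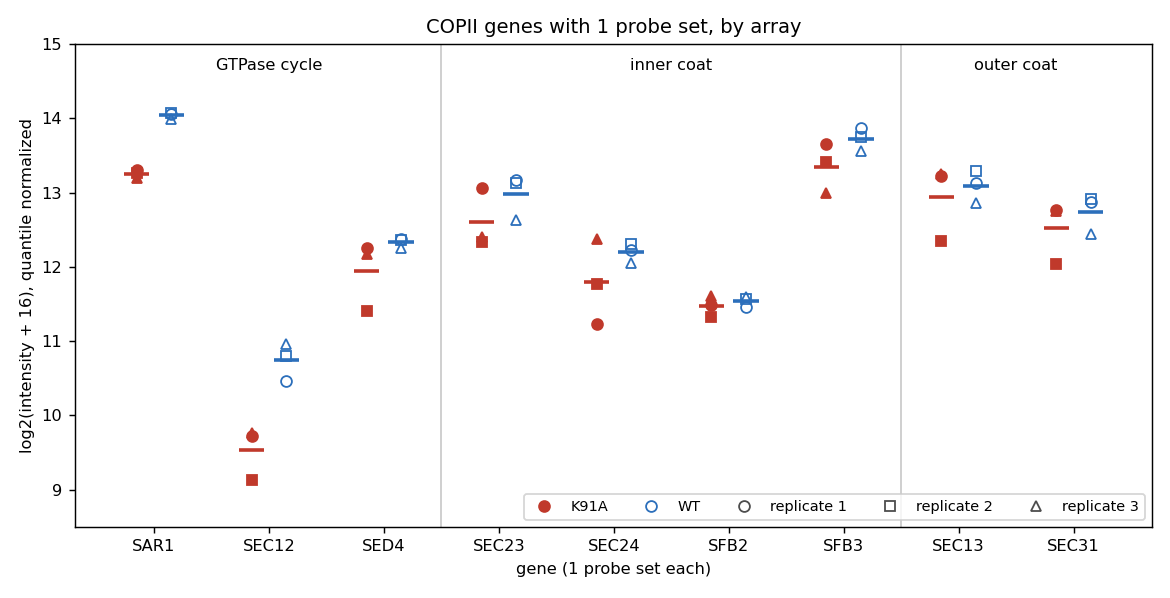
Levels of the 9 COPII genes with 1 probe set on each array, as log2(intensity + 16) after quantile normalization. Filled red symbols are K91A arrays, open blue symbols are WT arrays, symbol shapes are replicate numbers and bars are means (n = 3). SAR1, SEC12 and SED4 have K91A values below all WT values, and the other 6 genes overlap.

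The inner coat genes did not separate the groups. SEC23, the GTPase-activating subunit, had 13.07, 12.33 and 12.40 on K91A 1, 2 and 3, against 13.17, 13.14 and 12.63 on WT 1, 2 and 3. K91A 1 lay within the WT range and the other K91A arrays below it (log2 fold change -0.38, SE 0.27). SEC24, the main cargo-binding subunit, had 11.23, 11.77 and 12.38 in K91A and 12.22, 12.30 and 12.06 in WT. Its K91A arrays spanned a range wide enough to enclose all 3 WT values (SD 0.57 against 0.13, log2 fold change -0.40, SE 0.30).

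The Sec24 relatives also overlapped. SFB3, which helps to load the plasma membrane proton pump Pma1 into vesicles, had 13.65, 13.41 and 13.00 on K91A 1, 2 and 3, against 13.87, 13.74 and 13.56 on WT 1, 2 and 3. Only K91A 1 reached the WT range (log2 fold change -0.37, SE 0.21), and with the arrays centred on their medians SFB3 was called lower (-0.64). SFB2 had the smallest difference of the 9 genes with 1 probe set. It had 11.49, 11.33 and 11.61 in K91A and 11.45, 11.56 and 11.59 in WT, with a log2 fold change of -0.06 (SE 0.17), which turned to 0.07 with the arrays centred on their bright probe sets.

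In the outer cage, SEC13 had 13.22, 12.35 and 13.25 on K91A 1, 2 and 3, against 13.12, 13.28 and 12.86 on WT 1, 2 and 3. Its partner SEC31 had 12.77, 12.04 and 12.76 in K91A and 12.87, 12.92 and 12.44 in WT. Both genes were low on K91A 2 and, among the WT arrays, on WT 3, and otherwise lay together. Their log2 fold changes were -0.15 (SE 0.28) and -0.22 (SE 0.27). Without K91A 2 they were 0.15 and 0.02, so the sign of each rests on that array.

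SEC16 has the longest of these genes, 6588 nt in the RefSeq annotation (assembly R64, chromosome XVI), against 712 to 3822 nt for the others. Its 9 probe sets include 7 with consecutive identifiers, 2532_g_at to 2538_s_at, and 2 others, 2617_at and 7850_at. Of these, 6 have an identifier ending in s_at, which marks probes shared between sequences on arrays of this type. The files do not place the probe sets along the gene.

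The brightest probe set of SEC16 on average, 2538_s_at, had 12.53, 12.09 and 12.44 on K91A 1, 2 and 3, against 9.12, 9.20 and 10.29 on WT 1, 2 and 3. The difference was 7.03-fold with K91A higher (log2 fold change 2.81, SE 0.34), and WT 3 lay nearer to the K91A arrays than WT 1 and WT 2 did. Probe set 2537_s_at had 10.91, 11.19 and 11.29 in K91A and 9.22, 8.995 and 9.92 in WT. It was 3.37-fold higher (log2 fold change 1.75, SE 0.29), again with WT 3 as the highest WT array. WT 3 was also the WT array with the highest actin 5' over 3' ratio (0.365), and the part of that difference in the SEC16 values was not tested.

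On the WT arrays 2537_s_at lay at the 17.4 to 30.8 percentile and 2538_s_at at the 19.0 to 37.0 percentile. On the K91A arrays they lay at the 49.1 to 56.7 and 72.4 to 80.0 percentile. Their means passed the filter on dim signal largely through the K91A arrays, and a probe set that passes in this way has to be higher there. Whether their WT signal was above background is unknown, so the size of each fold rests on dim WT values. Both were called higher in the fits without each array in turn, with log2 fold changes of 2.57 to 3.18 for 2538_s_at and 1.51 to 2.05 for 2537_s_at. On the values as deposited 2537_s_at (1.26) was no longer called and 2538_s_at (2.22) was.

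The other 7 probe sets of SEC16 gave smaller differences. Probe set 7850_at had 11.27, 10.91 and 11.77 on K91A 1, 2 and 3, against 10.56, 10.63 and 10.31 on WT 1, 2 and 3. On the WT arrays 7850_at was thus brighter than 2538_s_at, with means of 10.50 and 9.54. The groups did not overlap for 7850_at, but its log2 fold change of 0.82 (SE 0.26) did not pass the threshold. It passed without K91A 2 (1.04) and with the arrays centred on their bright probe sets (1.03). Probe set 2535_s_at had 9.69, 9.50 and 10.15 in K91A and 10.15, 9.98 and 9.96 in WT. There the groups overlapped and the log2 fold change was -0.25 (SE 0.25).

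The 5 dim probe sets of SEC16 overlapped between the groups, and none was called when the filter was dropped. Their log2 fold changes were 0.68 for 2536_s_at, 0.14 for 2533_s_at, -0.03 for 2532_g_at, -0.08 for 2617_at and -0.59 for 2534_s_at, with SE of 0.24 to 0.49 in the fit without the filter. Probe set 2536_s_at had 10.06, 9.19 and 10.16 on K91A 1, 2 and 3, against 8.85, 9.04 and 9.47 on WT 1, 2 and 3, where K91A 2 alone lay within the WT range. The other 4 ranked among the dimmest probe sets of every array. In order of identifier, the last 3 of the consecutive run, 2536_s_at, 2537_s_at and 2538_s_at, thus had 0.68, 1.75 and 2.81, while the first 4 had values between -0.59 and 0.14.

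**Figure D2:**
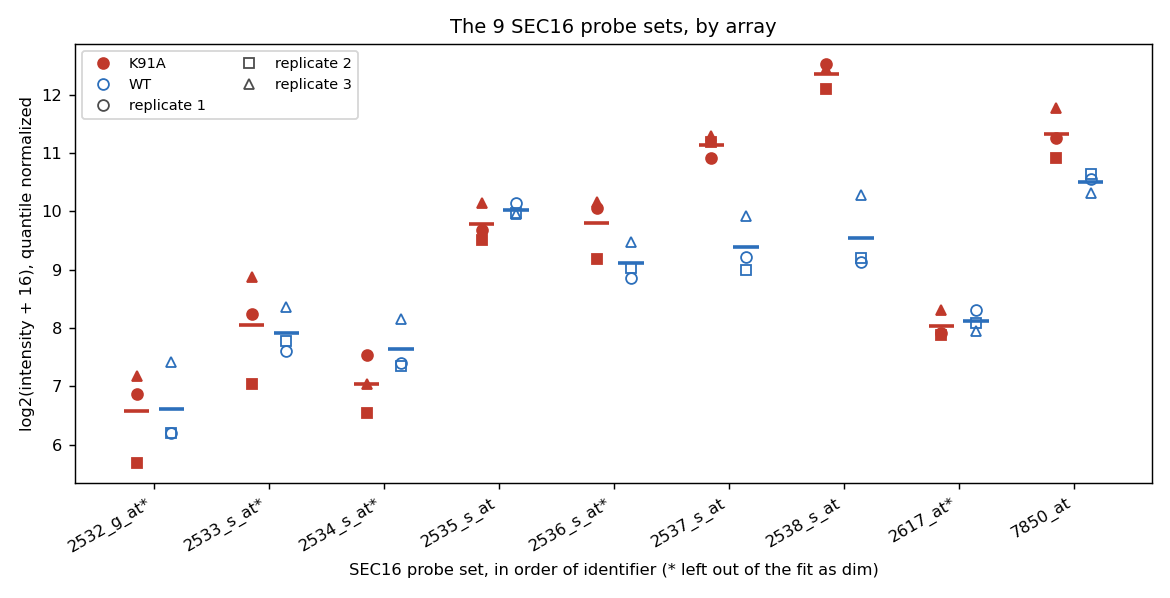
Levels of the 9 SEC16 probe sets on each array, as log2(intensity + 16) after quantile normalization, in order of probe set identifier, which is not known to be the order along the gene. Filled red symbols are K91A arrays, open blue symbols are WT arrays and bars are means (n = 3), and an asterisk marks the 5 probe sets left out of the fit. K91A lies above WT for 2537_s_at, 2538_s_at and 7850_at, and the groups overlap for the other 6.

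Probe sets of 1 gene often differed in log2 fold change on these arrays. Of 31 genes with at least 4 tested probe sets, counted after the SEC16 values were seen, 26 were called by some of their probe sets, 1 by all and 4 by none. A mix of called and uncalled probe sets was thus common among these genes, and its cause was not tested. The gap between the highest and lowest log2 fold change of SEC16 was 3.06, the 9th widest of the 31, where the median gap was 2.75. A gap tends to widen with the number of probe sets, which was 4 to 22 for these genes. Among the genes with 4 tested probe sets SEC16 had the widest gap, and the next was 2.87. Of the 170 tested probe sets of these genes, 52 were higher (30.6%) and 8 lower (4.71%) in K91A, against 15.4% and 14.8% of all probe sets tested. The entry YGR109W-B alone held 22 of the 170 and 9 of the 52. The large fatty acid synthase genes FAS1 and FAS2 had gaps of 3.01 and 4.31.

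In a further fit each array's trend of signal on gene length was removed, over protein-coding genes. SEC16 probe sets 2538_s_at and 2537_s_at were then at 2.36 and 1.30 and stayed past the threshold, 7850_at was at 0.37 and 2535_s_at at -0.70. SAR1, the shortest of the genes at 712 nt, was at -0.57 and SEC12 (1416 nt) at -1.25, both past the threshold. None of the other 7 COPII genes was called in that fit.

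**Figure D3:**
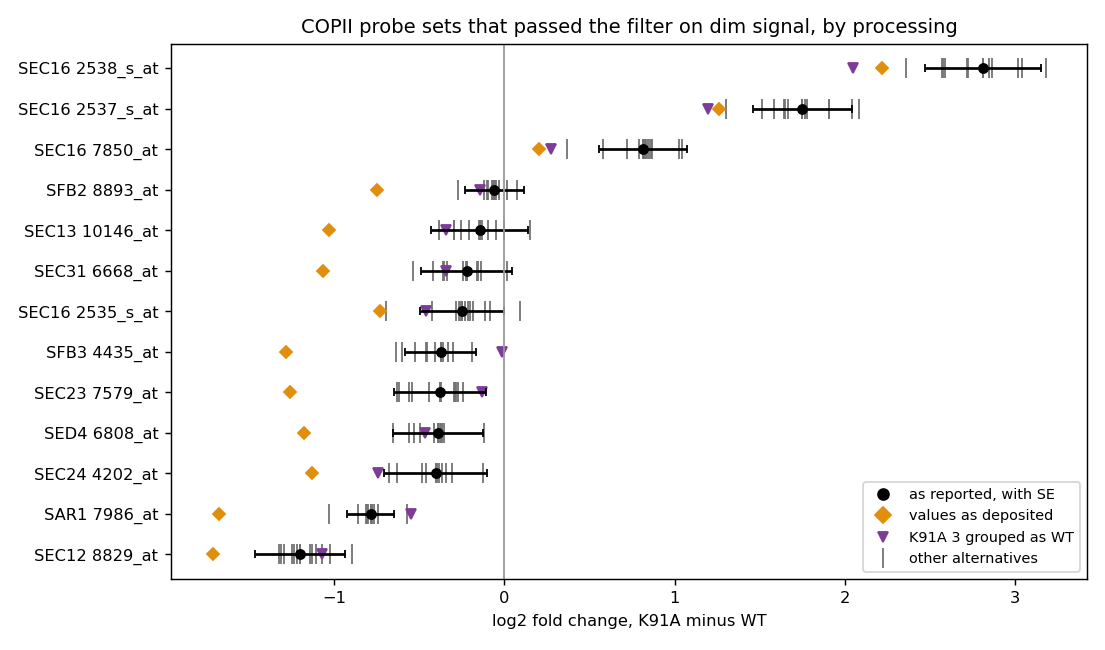
Log2 fold change, K91A minus WT, of the 13 COPII probe sets that passed the filter, with the value as reported and its SE (black), the values as deposited (orange), K91A 3 grouped as WT (purple) and all other alternatives (grey ticks). SAR1 and SEC12 stay below 0 and SEC16 2538_s_at, 2537_s_at and 7850_at above 0 under every alternative that gave a value. SEC23, SEC24, SED4 and SFB3, which were not called, also stay below 0. The values as deposited lie to the left of the reported ones throughout.

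The probe sets whose pattern lay nearest to that of SEC16 2538_s_at were sought among tested probe sets with 1 gene symbol. Likeness was the root mean square distance over the 6 arrays between log2 levels, each minus its WT mean. The 5 nearest were KCC4 (distance 0.21), a septin-associated kinase, YHR033W (0.27), PAC11 (0.28), a dynein subunit, BLM10 (0.28), a proteasome activator, and the flavohaemoglobin YHB1 (0.30). Their log2 fold changes ranged from 2.49 to 3.01. In all 5, as in SEC16 2538_s_at, WT 3 was the highest of the WT arrays. They were picked for their likeness, so these values are a description.

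Other genes were taken from a list of 78 genes in 5 roles, of which 76 could be tested with 1 probe set each. All roles but 1 are of traffic between ER and Golgi. That 1 holds the other subunits of complexes with Sec13, and all counts of transport genes include it. In limma's test 18 of the 76 fell (23.7%, against 14.8% of all probe sets) and 4 rose (5.26%, against 15.4%) in K91A. The Sec13 complexes gave 4 of those that fell and 2 of those that rose. The median log2 fold change was -0.49, against -0.07 over all probe sets. Of the 76 values 60 were negative, against 3702 of the 6931 probe sets tested. The counts depended on the WT arrays, as did those over all probe sets. Without WT 1, 7 of 75 fell and 1 rose, against 5.64% lower and 7.7% higher of all probe sets. Without WT 2, 6 of 75 fell and 1 rose, against 5.22% and 6.91%. Without WT 3, 11 of 75 fell and 4 rose, against 9.61% and 12.6%. Without K91A 3, 16 of 76 fell and 6 rose, against 14.5% and 12.5%. On the values as deposited none of the 4 that rose was called, with log2 fold changes of 1.07 for GSF2, 0.38 for MTC5, 0.30 for RTC1 and 0.17 for GRH1. Of all probe sets 0.462% were higher and 9.68% lower on those values. Of the genes that fell and are named below, GLO3, NUP120, TRS20, UFE1 and SEH1 also lost their calls there (limma adjusted p of 0.0784 to 0.131).

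The COPI coat, which returns proteins from Golgi to ER, was lower in part. Of 13 genes 4 fell (30.8%, against 14.8% of all probe sets) and 0 rose (against 15.4%). Of the 13 log2 fold changes 12 were negative (median -0.52, with 0 higher at an unadjusted p under 0.05), against 3702 of the 6931 probe sets tested. SEC28 and SEC26, subunits of the coat, had log2 fold changes of -1.08 (SE 0.17, limma adjusted p = 0.00609) and -1.16 (SE 0.21, adjusted p = 0.00898). The Arf exchange factor GEA1 had -1.98 (SE 0.40, adjusted p = 0.0133) and the Arf GTPase-activating protein GLO3 had -0.86 (SE 0.18, adjusted p = 0.0135). GEA1 levels were 8.06, 9.55 and 8.67 on K91A 1, 2 and 3, against 10.51, 10.65 and 11.08 on WT 1, 2 and 3. GEA1 passed the filter on dim signal through the WT arrays, and the filter thus favours a lower call for it. Without the filter its log2 fold change was the same and the adjusted p was 0.0124, with dim K91A values whose level above background is unknown. SEC28 and SEC26 stayed past the threshold without each array in turn, GEA1 fell below the filter without any 1 WT array, and GLO3 was not called without WT 1 (-0.79) or WT 2 (-0.90). The related exchange factor GEA2 had 3 tested probe sets, at -1.15, which passed, and at -0.54 and 0.77, which did not.

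Cargo receptors and helpers of ER exit had members on both sides. Of 21 genes 6 fell (28.6%, against 14.8% of all probe sets) and 1 rose (4.76%, against 15.4%), with a median of -0.49. EMP47, a lectin-like receptor for glycoproteins, had 11.54, 11.40 and 11.42 on K91A 1, 2 and 3, against 12.92, 13.00 and 12.77 on WT 1, 2 and 3 (log2 fold change -1.44, SE 0.17, limma adjusted p = 0.00275). The receptor SVP26, also called ERV26, fell by 1.32 on the log2 scale (SE 0.20, adjusted p = 0.00502) and the receptor ERV14 by 0.93 (SE 0.19, adjusted p = 0.0141). GSF2, which helps hexose transporters to leave the ER, was the 1 that rose, to 12.32, 12.73 and 13.15 in K91A, against 10.39, 10.69 and 11.80 in WT (log2 fold change 1.78, SE 0.40, adjusted p = 0.0184). EMP47 and SVP26 were called without each array in turn. ERV14 (-0.93 and -0.89) and GSF2 (1.49 and 1.62) were not called without WT 1 or WT 2.

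Of 23 genes for tethering and fusion 3 fell (13%, against 14.8% of all probe sets) and 0 rose (against 15.4%). The median was -0.55, with 0 higher at an unadjusted p under 0.05. The 3 that fell were TRS33 (-1.30, SE 0.18, limma adjusted p = 0.0037) and TRS20 (-1.04, SE 0.21, adjusted p = 0.0139), subunits of the TRAPP tether, and the ER SNARE UFE1 (-0.80, SE 0.25, adjusted p = 0.0492). UFE1 kept its call in 1 of 6 fits that left out an array, with values of -1.01 to -0.55, and lost it after removal of the length trend (-0.72), with centring on bright probe sets (-0.74) and without the filter (adjusted p = 0.0565). TRS20 lost it without WT 2 (-1.07). Among 8 modulators of COPII vesicle formation, 1 fell and 1 rose (12.5% each, against 14.8% and 15.4% of all probe sets). TED1, which acts with p24 proteins in export from the ER, had -1.25 (SE 0.16, adjusted p = 0.00321) and was called without each array in turn. GRH1, a Golgi protein that binds COPII subunits, had 0.95 (SE 0.19, adjusted p = 0.0135) and was not called without WT 1 (0.94) or WT 2 (0.86).

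Sec13 is also a subunit of the nuclear pore and of the SEA complex at the vacuole, which acts in nutrient signalling. Of 11 tested genes of these complexes 4 fell (36.4%, against 14.8% of all probe sets) and 2 rose (18.2%, against 15.4%), with a median of -0.22. The nuclear pore subunit NUP120 fell (-1.33, SE 0.32, limma adjusted p = 0.0215), as did SEH1 (-0.68, SE 0.18, adjusted p = 0.0285), which belongs to both complexes. The SEA subunits MTC5 (1.11, SE 0.19, adjusted p = 0.00729) and RTC1 (0.94, SE 0.21, adjusted p = 0.0183) rose. MTC5 was called without each array in turn. RTC1 was not called without K91A 1 (0.86), WT 1 (0.96) or WT 2 (0.92), nor after removal of the length trend (0.61). NUP120 was not called without any 1 of the WT arrays (-1.36 to -1.22), and SEH1 was called only without K91A 2 or K91A 3. SEC13 itself differed less than the spread between replicates, as given above.

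**Figure D4:**
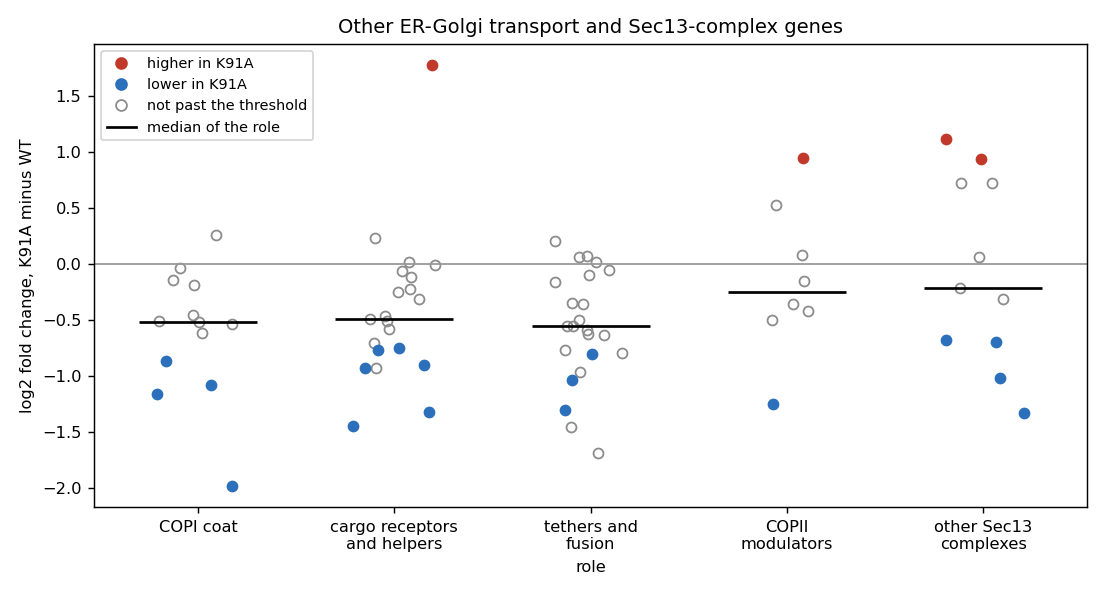
Log2 fold change, K91A minus WT, of 76 other ER-Golgi transport and Sec13-complex genes by role, 1 point per gene. Filled red points are higher and filled blue points lower in K91A past the threshold, open points did not pass, and black bars are medians. In each of the 5 roles the median lies below 0, and the COPI and fusion roles hold no gene called higher.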

How the data were processed

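The deposited values are linear intensities, 1 for each probe set on each array. The authors' scaling and software were found in no label or header. Gene names came from the platform annotation, and symbols were updated by Entrez identifier from a RefSeq gene table (assembly R64), which also gave lengths. Intensities were set to log2(intensity + 16) and quantile normalized without the 60 controls. Left out were 33 probe sets that had under 2 values in a group and the 2311 dimmest. The test was that of limma 3.58.1 under R 4.3.3 (eBayes with a mean-variance trend) and adjusted by Benjamini-Hochberg over 6931 probe sets. A gene in the transport lists was represented by its brightest probe set. Named were all COPII probe sets, up to 4 genes with the smallest p of each role, the 5 nearest to SEC16, and ADE2 and TRP1. GEA2, FAS1, FAS2 and YGR109W-B were named after their values were seen. Members and lists were chosen with earlier results of these data known. The alternatives were the replicate block, each array left out, K91A 3 as WT, WT 1 and WT 2 averaged, pseudocounts of 1 and 64, other scalings and filters, no trend, and removal of the length trend.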

Additional observations from a re-analysis of the deposited data

How the results depend on the processing

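The 2 COPII probe sets higher and 2 lower in K91A were the counts under the pseudocounts of 1 and 64, without the filter on dim signal, without the mean-variance trend and after removal of the length trend. Of all probe sets tested, 13.7% to 16.2% were higher and 12.6% to 15% lower under these settings. With K91A 3 grouped as WT, limma called 0 of all probe sets tested, and the counts higher and lower were 0 and 0 for COPII and 0 and 0 for the other transport genes (0 and 2, and 3 and 9, at an unadjusted p under 0.05). The transport genes here include those of the Sec13 complexes. On the values as deposited the counts higher and lower were 1 and 1 for COPII. There 0 transport genes rose, also at an unadjusted p under 0.05, while 13 fell. Of all probe sets 0.462% were higher and 9.68% lower on those values. With WT 1 and WT 2 averaged, 1 COPII probe set was lower, and 1 transport gene rose and 7 fell. Of all probe sets 7.5% were then higher and 5.7% lower. With the dimmest 50% left out the SEC16 and SEC12 probe sets were not tested, which left 0 COPII probe sets higher (0 at an unadjusted p under 0.05) and 1 lower. Of all probe sets tested in that fit 14.8% were higher and 14.8% lower. Leaving out each array in turn gave 0 to 2 COPII probe sets lower, with 0 without WT 2, where 2 lower had an unadjusted p under 0.05. For the other transport genes it gave 1 to 6 higher and 6 to 19 lower. Over all probe sets the shares in these fits were 6.91% to 16.5% higher and 5.22% to 16.8% lower. In all, 2091 probe sets were called, against 925 without WT 1, 841 without WT 2, 915 with these averaged, 703 as deposited and 1372 with the dimmest 50% left out. No pairing of the samples by replicate number was visible. Deviations of same-numbered arrays from their group means correlated at 0.167, -0.152 and -0.00523, against -0.212 to 0.164 for the other pairs. With 3 arrays a group these values cannot exclude a pairing. With the replicate block 2 COPII probe sets were higher and 2 lower, and 4 transport genes rose and 13 fell. Of all probe sets 12% were higher and 10.1% lower with the block. Among the named transport genes the block ended the calls of UFE1 (limma adjusted p = 0.0671) and SEH1 (0.075). With WT 1 and WT 2 averaged, ERV14, GLO3, GRH1, GSF2, NUP120, RTC1, SEH1 and UFE1 were not called (adjusted p of 0.0573 to 0.138). Of 229 log2 fold changes of COPII probe sets over 18 alternatives, 201 moved by less than the SD within groups and 28 by more. The replicate block, the changes of filter and the fit without a trend cannot move a log2 fold change. Part of the 201 was thus fixed in advance, and the count is no measure of stability. The sign differed in 5, for SEC13, SEC31, SFB2 and SEC16 2535_s_at, none of them called. The cause of these changes was not tested. The number of arrays and the absence of detection calls limit the precision.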
